A study of Mus musculus with 6 samples.

Results

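The splicing factors described here are the genes whose symbols begin with Srsf and a digit, with Hnrnp, with Snrp, or with Sf3a or Sf3b and a digit, pseudogenes left out. They number 51 of 22377 genes in the count table. The SR genes contribute 11, the hnRNP genes 20, the snRNP genes 11 and the SF3 genes 9. A filter on low counts passed 50 of the 51. The exception was Srsf12, with 0, 0 and 9 counts in the wt libraries and 8, 6 and 0 counts in the libraries labelled knockdown.

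The material was mouse tumor RNA in 6 libraries, 3 with the label wt and 3 with the labels ko and knockdown. In the methods of the study, the RNA sequencing groups are Npm1+/+ and Npm1+/- mice of both sexes, 6 to 8 weeks old, bearing subcutaneous LLC (Lewis lung carcinoma) tumors, and the RNA is that of sorted CD45+ CD11b+ F4/80+ cells, the tumor-associated macrophages (TAMs). Npm1+/- is a germline loss of 1 copy of Npm1, the gene of the nucleolar protein nucleophosmin, so that every cell of the animal carries it and not the macrophages alone. The labels instead give tumor tissue, a knockdown, a TRIzol extraction and a small RNA library, and no genotype, sex or age. Which description holds could not be settled from these data, and the groups keep the names wt and knockdown of the labels. Nothing in the labels says whether the 3 samples of a group came from separate animals, so the p-values measure the spread between these samples. The paper's legend for its heatmap of these data gives an n of 2 mice, fewer than the 3 libraries per group used here.

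Total counts lay between 36550775 and 38147320 per library. In a principal component analysis of log2 CPM, component 1 took 68.0% of the variance and placed wt replicate 1 at 108 while the other 5 libraries lay between -52.0 and 4.54. Npm1 did not separate the labels. Its level was 142, 380 and 381 CPM in wt replicates 1 to 3 and 441, 499 and 343 CPM in knockdown replicates 1 to 3, with a log2 difference of 0.51 ± 0.36 (SE) and an adjusted p of 0.436 in edgeR's quasi-likelihood test. Without wt replicate 1 the difference was 0.16. Directions below are therefore those between the labels. CPM here are counts scaled to a common library size after TMM normalisation, and a log2 fold change is knockdown minus wt, so that values above 0 are higher in the libraries labelled knockdown.

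Splicing removes introns from the primary transcript. The snRNPs are particles of small nuclear RNA and protein, built on a ring of Sm proteins, that recognize the splice sites and form the spliceosome, and the SF3a and SF3b complexes belong to the U2 snRNP and hold it at the branch point. SR proteins mostly promote the use of the exons they bind, while hnRNPs coat the primary transcript and often repress nearby splice sites, so that the balance between both families shapes alternative exons. Many of these genes limit their own level through a poison exon, whose inclusion sends the transcript to nonsense-mediated decay (NMD).

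For the 7 members with the highest estimates and the 1 with the lowest, the 100 bases upstream of the RefSeq start (build GRCm38.p6) are shown in the direction of the gene, to set these windows side by side. Capitals mark matches on either strand to the CCAAT box (CCAAT or ATTGG), the GC box (GGGCGG or CCGCCC), the ETS core (CGGAAG or CTTCCG) and the E-box (CACGTG). The windows are chr15:103240297-103240396 on the plus strand for Hnrnpa1, chr11:50376890-50376989 on the plus strand for Hnrnph1, chr17:80207306-80207405 on the minus strand for Srsf7, chr4:135855971-135856070 on the plus strand for Srsf10, chr3:158036607-158036706 on the minus strand for Srsf11, chr2:75659159-75659258 on the plus strand for Hnrnpa3, chr10:63023850-63023949 on the minus strand for Hnrnph3, and chr7:25754760-25754859 on the minus strand for Hnrnpul1, the member with the lowest estimate.
Hnrnpa1: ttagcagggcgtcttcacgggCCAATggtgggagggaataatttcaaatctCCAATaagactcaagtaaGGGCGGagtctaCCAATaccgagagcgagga
Hnrnph1: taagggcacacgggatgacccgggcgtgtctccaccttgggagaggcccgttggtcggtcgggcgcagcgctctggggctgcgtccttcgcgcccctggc
Srsf7: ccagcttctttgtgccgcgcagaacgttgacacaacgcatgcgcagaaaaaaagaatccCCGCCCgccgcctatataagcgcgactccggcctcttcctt
Srsf10: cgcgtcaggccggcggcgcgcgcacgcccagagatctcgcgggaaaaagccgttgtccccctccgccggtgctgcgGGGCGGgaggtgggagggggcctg
Srsf11: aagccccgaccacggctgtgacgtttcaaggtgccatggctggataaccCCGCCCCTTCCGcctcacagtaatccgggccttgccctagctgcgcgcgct
Hnrnpa3: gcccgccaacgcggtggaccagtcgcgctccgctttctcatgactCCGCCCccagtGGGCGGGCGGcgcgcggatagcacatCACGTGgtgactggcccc
Hnrnph3: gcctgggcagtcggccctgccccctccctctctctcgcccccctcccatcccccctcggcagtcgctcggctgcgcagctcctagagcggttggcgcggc
Hnrnpul1: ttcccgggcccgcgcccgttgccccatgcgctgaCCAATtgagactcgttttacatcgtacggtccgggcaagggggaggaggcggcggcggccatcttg
The Hnrnpa1 window holds 3 CCAAT boxes and 1 GC box. Srsf7 and Srsf10 each hold a GC box, and the Srsf11 window has a GC box directly followed by an ETS core. Hnrnpa3 holds 3 GC boxes, of which 2 overlap, and an E-box, and Hnrnpul1 holds a CCAAT box. In Hnrnph1 and Hnrnph3 none of these letters occur in this window. The Srsf10 and Hnrnph3 windows lie inside the gene as annotated in GENCODE M21, which starts at 135855747 and 63024217. Those of Srsf11 and Srsf7 reach partly into it. Such bases are not upstream of the outermost annotated start, so the window need not be the core promoter. Over all 250 bases before the start, 44 tested members could be set beside 9871 tested protein-coding genes. The ETS core was found in 54.5% of the members and 25.4% of all genes, the GC box in 70.5% and 59.0%, and the CCAAT box in 45.5% and 36.8%. The E-box was found in 6.82% and 8.29%, the CRE (TGACGTCA) in 4.55% and 2.68%, and the TATA box (TATAAA or TTTATA) in 11.4% and 6.42%. Matches are letters in a window and say nothing of binding, and GC content was close, with a median of 60.6% in members and 59.6% in all genes.

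No splicing factor differed between the labels after adjustment over all genes. Family medians of the log2 fold change were 0.21 for SR, 0.09 for hnRNP, 0.12 for snRNP and -0.02 for SF3 genes. The 7 highest estimates, between 0.44 and 0.75, were those of Hnrnph1, Hnrnpa1, Srsf10, Hnrnpa3, Hnrnph3, Srsf11 and Srsf7, and the lowest was that of Hnrnpul1 at -0.35.

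At an adjusted p under 0.05, edgeR called 0 of 50 members and 0 of 13884 genes, 0% of those tested. At an unadjusted p under 0.05, 8 members were higher and 1 was lower, beside 6.9% and 8.31% of all genes. That is a larger share than the background on the higher side and a smaller one on the lower side. DESeq2 called 36 genes at an adjusted p under 0.05, none of them a member. At an unadjusted p under 0.05 it put 6 members on the higher and 1 on the lower side. Over all genes, 2451 of 22377 were under that threshold in DESeq2 in either direction. The libraries of both labels did not overlap in 15 members on the higher side, where 13.3% of all genes did not, and in 5 on the lower side (Hnrnpul1, Hnrnpf, Hnrnpul2, Snrpc and Sf3b2), a share below the 12.6% of all genes. On FPKM without TMM scaling, where the median over all genes was also higher, 1 member was lower without overlap. The share of all genes without overlap is not given for that scale. Estimates were above 0 in 34 members and below 0 in 16, and above 0 in 52.1% of all genes. On the deposited FPKM without TMM scaling, 43 members were above 0 and 7 below, and the median over all genes moved from 0.02 to 0.09 with 1 added before the log and to 0.16 with 0.1 added. The median log2 fold change of the members was 0.09, within a range of -0.35 to 0.75, and that of all genes was 0.02. With 3 libraries against 3, an exact permutation test of a single gene cannot go below p = 0.1.

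**Figure D1:**
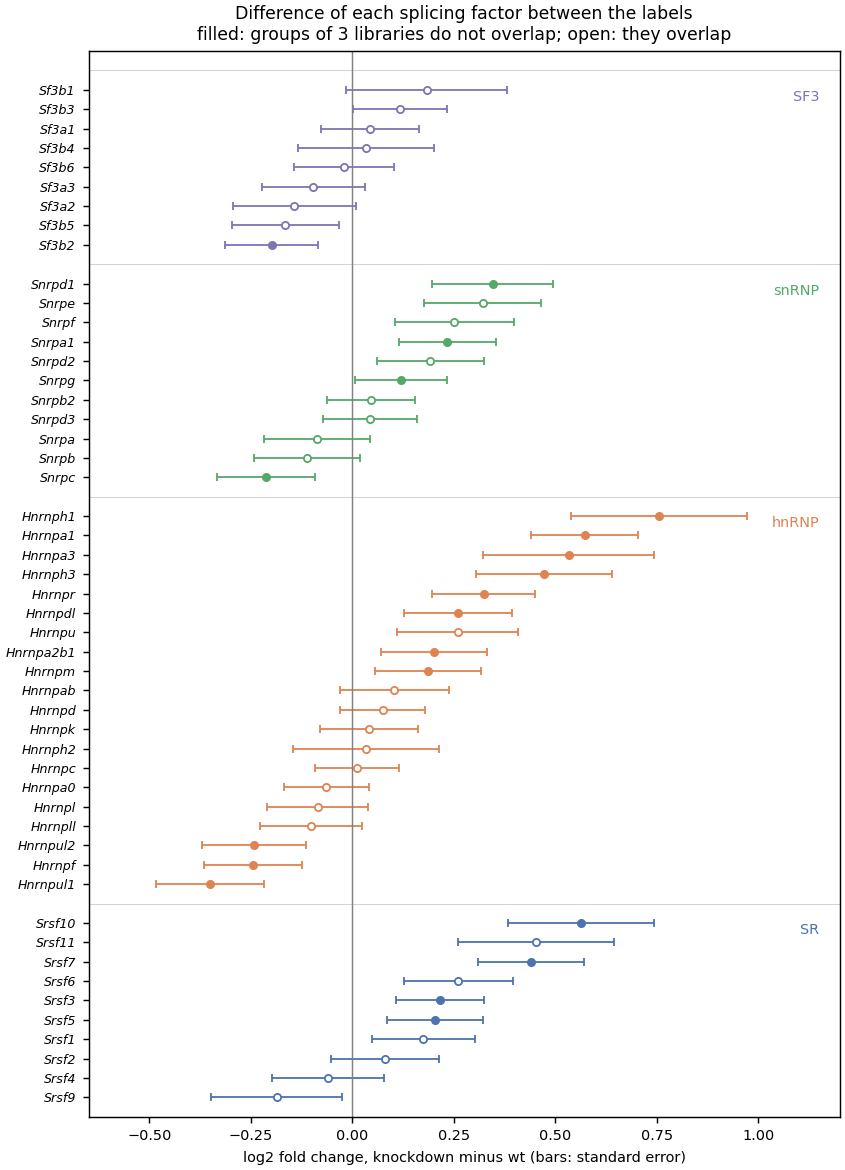
Log2 fold change (knockdown minus wt, horizontal axis) of each of the 50 tested splicing factors, grouped by family, with bars for the standard error of the edgeR fit. Filled points are genes whose 3 wt and 3 knockdown libraries do not overlap, which holds for 15 genes right of 0 and 5 genes left of it. Hnrnph1 lies farthest right at 0.75 and Hnrnpul1 farthest left at -0.35.

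The counts at an unadjusted p depended on single libraries. In edgeR without wt replicate 1, 5 members were under 0.05 on the higher side and 0 on the lower side, beside 1744 genes in all. Without knockdown replicate 2, the numbers were 3 and 0, and 669 genes in all were under that threshold instead of 2112. They were 5 and 0 without knockdown replicate 1, 5 and 1 without wt replicate 2, and 10 and 2 without wt replicate 3. The genes in all under that threshold were then 775, 2689 and 2403. The members' median was 0.08 without wt replicate 1 and 0.06 without knockdown replicate 2. These libraries also held many extremes, since wt replicate 1 was the lowest of the 6 libraries in 22 of 50 members and in 33.5% of all genes, and knockdown replicate 2 was the highest in 21 members and in 25.1% of all genes.

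SR genes had the highest family median, a log2 fold change of 0.21. It was 0.17 without wt replicate 1 or without knockdown replicate 2, and 0.13 in DESeq2 without wt replicate 1. The library medians of log2 CPM of SR genes also varied most within the labels, with a pooled SD of 0.145 against 0.0659 to 0.111 in the other families. Of the 10 tested, 8 had estimates above 0, beside 52.1% of all genes. The libraries of both labels did not overlap in 4 on the higher side and 0 on the lower side, beside 13.3% and 12.6% of all genes. At an unadjusted p under 0.05, 3 were higher and 0 lower, beside 6.9% and 8.31%. Srsf7, an SR protein with a zinc knuckle that also acts in mRNA export and polyadenylation, stood at 89.9, 95.9 and 102 CPM in wt and 124, 150 and 117 CPM in knockdown. Every knockdown library lay above every wt library, and the log2 fold change was 0.44 ± 0.13 (SE, n = 3 per group) with an adjusted p of 0.328 in edgeR.

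Srsf10, an SR-like factor that is dephosphorylated upon heat shock and then represses splicing, was at 41.9, 47.5 and 62.3 CPM in wt and at 69.5, 86.8 and 67.9 CPM in knockdown. The groups did not overlap, although wt replicate 3 came close to the knockdown values. Its log2 fold change was 0.56 ± 0.18 (SE, n = 3 per group), with an adjusted p of 0.328 in edgeR. Srsf11, the other tested SR-like factor, had 152, 124 and 185 CPM in wt and 194, 254 and 182 CPM in knockdown. Here knockdown replicate 3 lay below wt replicate 3 and the groups overlapped, with a log2 fold change of 0.45 ± 0.19 (SE) that was 0.28 without knockdown replicate 2.

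The most abundant SR genes had smaller differences. Srsf5, an SR protein whose level is known to respond to growth signals, had 378, 408 and 421 CPM in wt and 433, 469 and 488 CPM in knockdown. Srsf3, the smallest SR protein and a shuttling export adaptor, had 175, 184 and 193 CPM in wt and 212, 222 and 206 CPM in knockdown. Neither overlapped between the labels, and their log2 fold changes were 0.20 ± 0.12 and 0.22 ± 0.11 (SE, unadjusted p of 0.124 and 0.0821 in edgeR). Estimates below 0 were limited to Srsf4 and Srsf9, at -0.06 and -0.19, and both overlapped between the labels. The sign for Srsf4 turned without wt replicate 1, where the estimate was 0.05, and on FPKM without TMM scaling, where it was 0.09. Srsf9 was -0.08 without knockdown replicate 2 and -0.33 without knockdown replicate 3. The remaining SR proteins, Srsf1, Srsf2 and Srsf6, overlapped as well, with estimates of 0.17, 0.08 and 0.26.

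**Figure D2:**
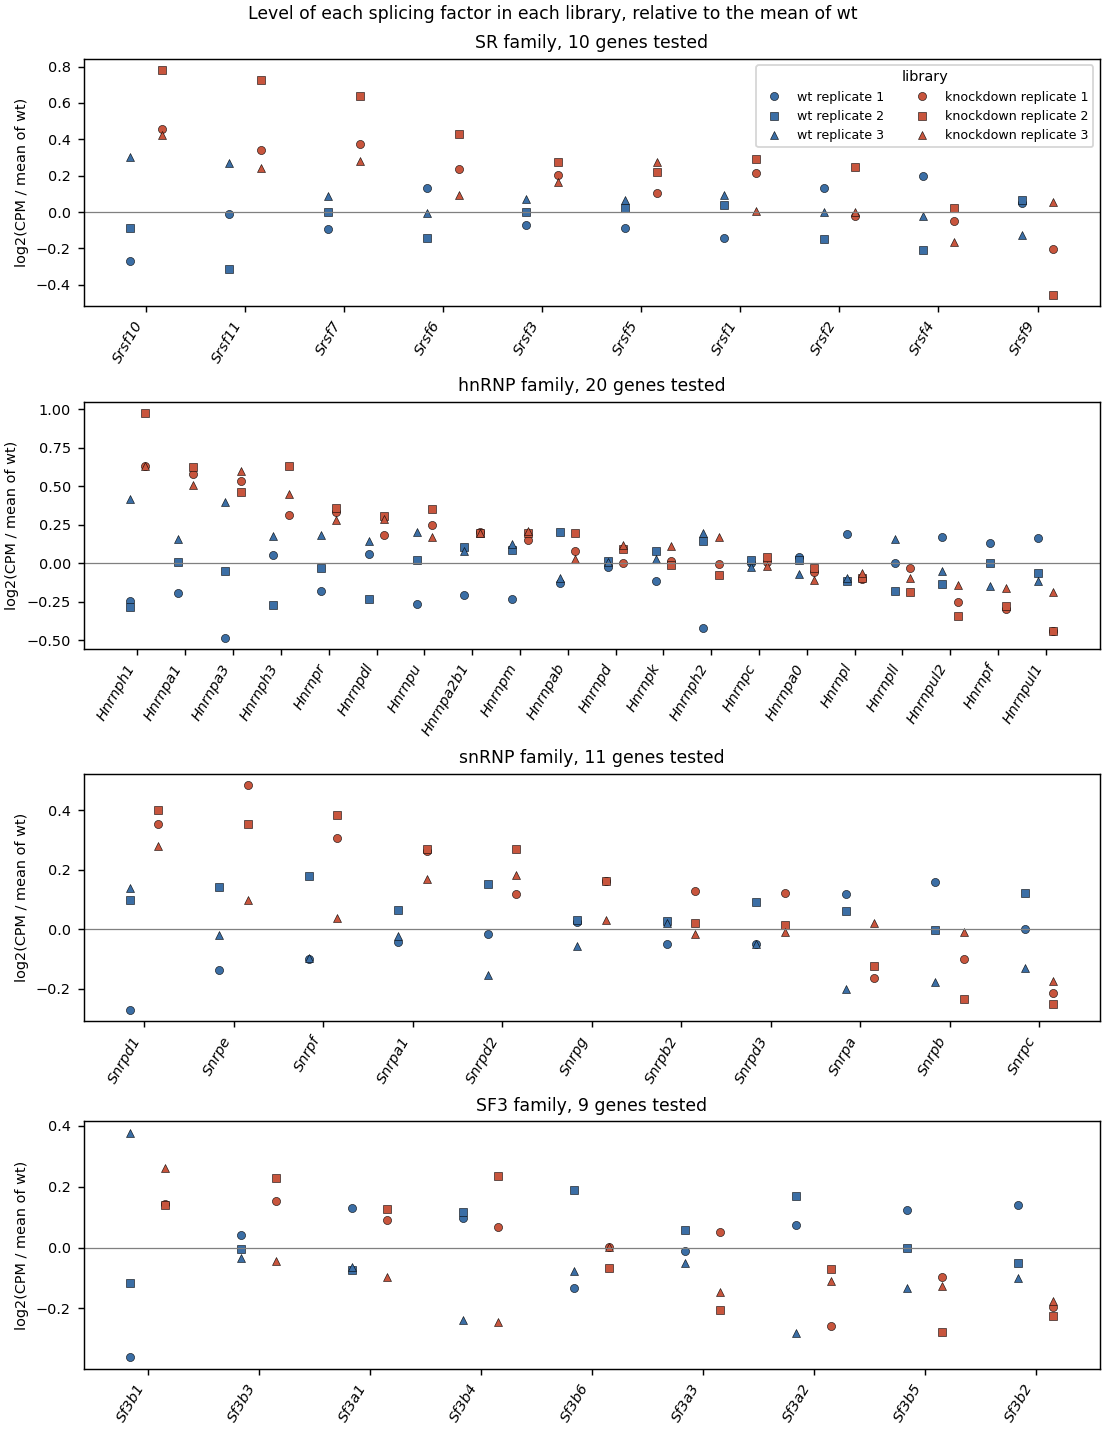
Level of each of the 50 tested splicing factors in each of the 6 libraries, as log2 of the CPM over the mean of the 3 wt libraries, with 1 panel for each family and genes ordered by fold change. Blue marks are wt and red marks knockdown, and the shapes give the replicate. In Hnrnpa1 the knockdown marks lie together above all wt marks, while in Hnrnph1, Hnrnpa3 and Srsf10 wt replicate 3 lies nearest to them.

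The hnRNP family had the widest range of estimates, from -0.35 to 0.75 on the log2 scale with a median of 0.09. The median was 0.05 without wt replicate 1. Estimates were above 0 in 14 of 20 genes, beside 52.1% of all genes. The labels did not overlap in 8 on the higher and 3 on the lower side, beside 13.3% and 12.6%, so the lower count is near the background. At an unadjusted p under 0.05, 5 were higher and 1 lower, beside 6.9% and 8.31%. Hnrnpa1, a shuttling protein that represses exons by binding intronic and exonic silencers, gave the smallest p of all members. It stood at 251, 288 and 321 CPM in wt and at 428, 443 and 408 CPM in knockdown. The gap between the highest wt and the lowest knockdown library exceeded the range within either group. Its log2 fold change was 0.57 ± 0.13 (SE, n = 3 per group) with an unadjusted p of 0.00276 and an adjusted p of 0.328 in edgeR, 0.48 without wt replicate 1 and 0.54 without knockdown replicate 2.

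Its relatives had differences of unequal size. Hnrnpa3 had 59.6, 80.4 and 110 CPM in wt and 121, 115 and 126 CPM in knockdown, a log2 fold change of 0.53 ± 0.21 (SE) that was 0.34 without wt replicate 1. Hnrnpa2b1, a homologue that also takes part in RNA trafficking, had 421, 522 and 512 CPM in wt and 558, 556 and 557 CPM in knockdown, where the 3 libraries were almost equal. Hnrnpa0, an AU-rich element binding protein, stood at 210, 207 and 195 CPM against 196, 199 and 189 CPM, with overlapping groups. Across the 7 genes of the A/B and D type, 6 estimates were above 0, beside 52.1% of all genes, and the median was 0.20.

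The F/H type, which binds G-rich runs in introns and exons, held both directions. Hnrnph1 had the largest estimate of the members, with 205, 200 and 324 CPM in wt and 376, 478 and 376 CPM in knockdown. Replicate 3 of wt lay well above the other wt libraries, and no wt library reached the knockdown values. The log2 fold change was 0.75 ± 0.22 (SE, n = 3 per group), with an unadjusted p of 0.00922 and an adjusted p of 0.328 in edgeR. Hnrnph3 had 23.4, 18.6 and 25.4 CPM in wt and 27.9, 34.8 and 30.8 CPM in knockdown, without overlap, a log2 fold change of 0.47 ± 0.17 (SE). Hnrnph2, the X-linked close paralogue of Hnrnph1, did not follow it, with 111, 164 and 169 CPM in wt and 148, 140 and 166 CPM in knockdown. Hnrnpf went the other way, with 268, 246 and 221 CPM in wt and 199, 202 and 219 CPM in knockdown. The Hnrnpf libraries did not overlap, though the closest pair differed by little, and its log2 fold change was -0.25 ± 0.12 (SE).

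The U type, large proteins with a SAP domain, was split as well. Hnrnpul1 was the only member under an unadjusted p of 0.05 on the lower side, at 0.0320 in edgeR, with 237, 203 and 196 CPM in wt and 156, 156 and 186 CPM in knockdown. The groups did not overlap, and the log2 fold change was -0.35 ± 0.13 (SE), -0.27 without wt replicate 1. No member stayed under that threshold on the lower side without wt replicate 1, knockdown replicate 1 or knockdown replicate 2. Hnrnpul2 had 279, 225 and 240 CPM in wt and 208, 195 and 225 CPM in knockdown, where the lowest wt and the highest knockdown library were nearly equal. Hnrnpu, also known as scaffold attachment factor A, pointed upward, with 319, 389 and 441 CPM in wt and 455, 488 and 431 CPM in knockdown, and it overlapped. Hnrnpr, a close paralogue of Syncrip, had 50.7, 56.2 and 65.2 CPM in wt and 72.2, 73.5 and 69.7 CPM in knockdown, a log2 fold change of 0.32 ± 0.13 (SE) without overlap. Hnrnpk, a KH-domain protein and the most abundant member by CPM after Sf3b1, stood at 553, 633 and 611 CPM against 605, 596 and 648 CPM. Its estimate of 0.04 turned to -0.02 without wt replicate 1.

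Of the snRNP genes, 8 of 11 had estimates above 0, beside 52.1% of all genes. Their median was 0.12, and 0.08 without wt replicate 3. The labels did not overlap in 3 on the higher side and 1 on the lower side, beside 13.3% and 12.6% of all genes. None was under an unadjusted p of 0.05 in edgeR, beside 6.9% and 8.31% of all genes. Snrpd1, a subunit of the Sm ring, had 24.3, 31.4 and 32.2 CPM in wt and 37.4, 38.7 and 35.6 CPM in knockdown. The groups did not overlap, and the log2 fold change was 0.35 ± 0.15 (SE), 0.22 without wt replicate 1. Snrpe, another Sm subunit, had 37.9, 46.1 and 41.2 CPM in wt and 58.3, 53.3 and 44.7 CPM in knockdown, where knockdown replicate 3 lay within the wt range. Snrpg, the Sm gene with the highest FPKM, was at 38.7, 38.9 and 36.6 CPM in wt and 42.6, 42.6 and 38.9 CPM in knockdown, and its lowest knockdown and highest wt library were almost equal. Although the 7 Sm proteins assemble as 1 ring, their estimates ran from -0.11 for Snrpb to 0.35 for Snrpd1, with a median of 0.19.

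The snRNP genes outside the Sm ring are proteins of the U1 and U2 particles. Snrpa1, the U2 A' protein, had 26.3, 28.4 and 26.7 CPM in wt and 32.6, 32.7 and 30.5 CPM in knockdown, without overlap and with a log2 fold change of 0.23 ± 0.12 (SE). Snrpc, the U1 C protein that contacts the 5′ splice site, had 41.3, 44.9 and 37.7 CPM in wt and 35.6, 34.7 and 36.6 CPM in knockdown. It was the snRNP gene that was lower without overlap, at -0.21 ± 0.12 (SE, unadjusted p of 0.120 in edgeR). Snrpa of U1 and Snrpb2 of U2 overlapped, at -0.09 and 0.05.

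SF3 genes were centred near 0, with a median of -0.02 that became 0.13 on FPKM without TMM scaling. Estimates were above 0 in 4 and below 0 in 5 of the 9 genes, beside 52.1% of all genes above 0. None was under an unadjusted p of 0.05 in edgeR, beside 6.9% of all genes on the higher and 8.31% on the lower side. For so few genes, that is near these shares. Sf3b2, which contacts the RNA near the branch point, had 218, 191 and 185 CPM in wt and 173, 169 and 175 CPM in knockdown, lower without overlap at -0.20 ± 0.11 (SE), and at -0.13 without wt replicate 1. Sf3b1, the branch-point scaffold that is recurrently mutated in myelodysplastic syndromes, had 611, 724 and 1019 CPM in wt and 867, 864 and 941 CPM in knockdown. The wt libraries enclosed the knockdown libraries. Their spread exceeded that of the knockdown libraries, with an SD of 211 against 43.8 CPM. Its estimate of 0.18 ± 0.20 (SE) was 0.03 without wt replicate 1. Sf3b3 had 121, 117 and 115 CPM in wt and 131, 138 and 114 CPM in knockdown, and Sf3b5, a small subunit, had 38.2, 35.0 and 31.9 CPM against 32.7, 28.9 and 32.1 CPM. Sf3b6, a further subunit of SF3b, was at 64.4, 80.3 and 66.8 CPM against 70.6, 67.3 and 70.6 CPM, and its estimate of -0.02 changed sign under 5 of 15 alternative settings.

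Ratios of paired members within a library do not depend on library scaling, and some separated the labels. The pairs were chosen after their values were seen, so the ratios are a description with no test. The FPKM ratio of Hnrnph1 to Hnrnpf was 1.19, 1.27 and 2.28 in wt and 2.94, 3.69 and 2.68 in knockdown. For Hnrnpa1 to Hnrnpa0 it was 1.65, 1.92 and 2.27 in wt and 3.00, 3.06 and 2.97 in knockdown, with 3 nearly equal knockdown libraries. Snrpd1 to Snrpc, an Sm subunit over a U1 protein, gave 0.923, 1.10 and 1.34 in wt and 1.65, 1.75 and 1.53 in knockdown. The ratio of Srsf10 to Srsf4 was 0.377 to 0.655 in wt and 0.744 to 0.883 in knockdown. Hnrnpu to Hnrnpul1 and Srsf7 to Srsf9 also did not overlap, but their closest libraries lay at 0.753 against 0.774 and at 1.56 against 1.57. The ratios of Snrpe to Snrpb and of Sf3b1 to Sf3b2 overlapped. In all 8 ratios, wt replicate 1 was the lowest library.

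**Figure D3:**
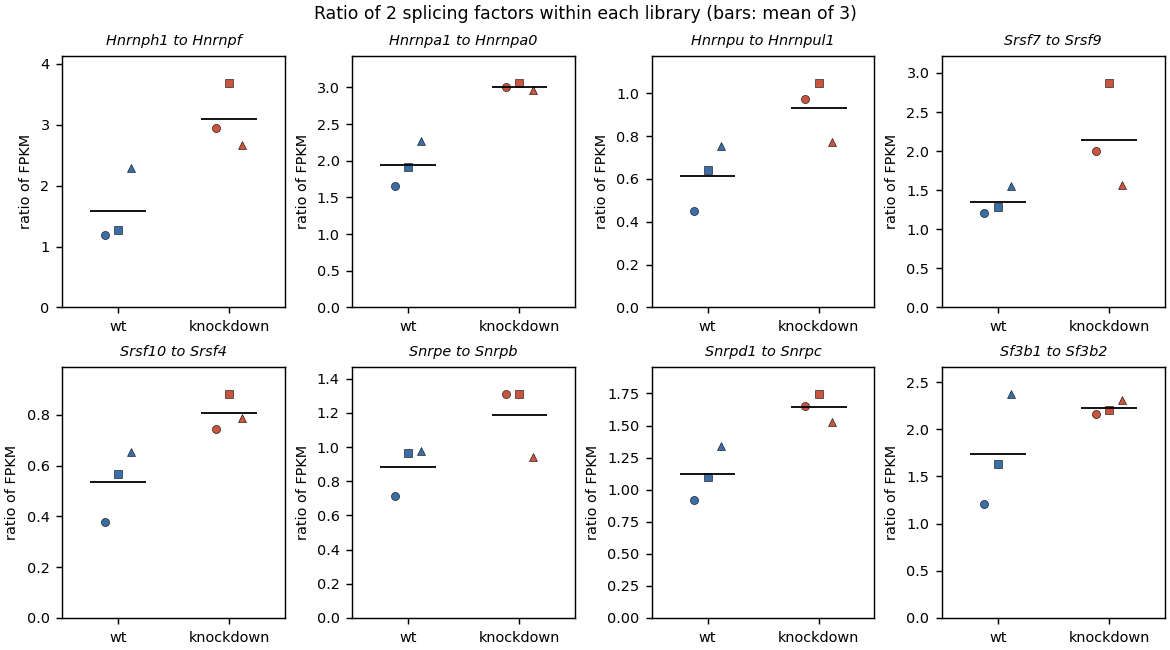
Ratio of the FPKM of 2 splicing factors in each library for 8 pairs, with wt at the left and knockdown at the right of each panel and horizontal lines for the means of 3 libraries. The 3 knockdown libraries lie close together for Hnrnpa1 to Hnrnpa0, between 2.97 and 3.06, and the labels overlap for Snrpe to Snrpb and for Sf3b1 to Sf3b2.

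Levels between genes were compared per transcript length, in FPKM. The members were abundant, with a median of 44.2 FPKM over the 50 tested against 4.21 FPKM over all genes tested. Srsf5 led with a mean of 268 ± 41.5 FPKM (SD, n = 6), followed by Hnrnpa1 at 186 FPKM with libraries between 121 and 261 and by Hnrnpk at 176 ± 16.1 FPKM. Across libraries the ranges of Srsf5 and Hnrnpa1 overlapped, but within each library Srsf5 was above both Hnrnpa1 and Hnrnpk. The order of Hnrnpa1 and Hnrnpk turned with the label, since Hnrnpk was higher in all 3 wt libraries, at 149, 171 and 173 FPKM against 121, 138 and 162, and lower in all 3 knockdown libraries, at 184, 197 and 181 FPKM against 231, 261 and 203. Next came Hnrnpab, Hnrnpa2b1, Sf3b1 and Snrpg at 115, 113, 112 and 102 FPKM, each within the spread of the other across libraries. Within each library, Hnrnpab was above Snrpg, while the other pairs changed order between libraries. At the low end were Hnrnpr at 7.49, Srsf10 at 9.88 and Hnrnph3 at 10.3 FPKM, so that the range over tested members was 35.8-fold. Within the Sm ring, mean levels lay between 40.2 FPKM for Snrpd1 and 102 FPKM for Snrpg, a 2.53-fold range. For Sf3b1 to Sf3b6, subunits of 1 complex, the order was led by Sf3b1 at 112 and Sf3b6 at 62.8 FPKM and closed by Sf3b4 at 25.2 FPKM. FPKM of short genes depend on the 1 length per gene that the authors used, so close ranks between genes are uncertain.

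**Figure D4:**
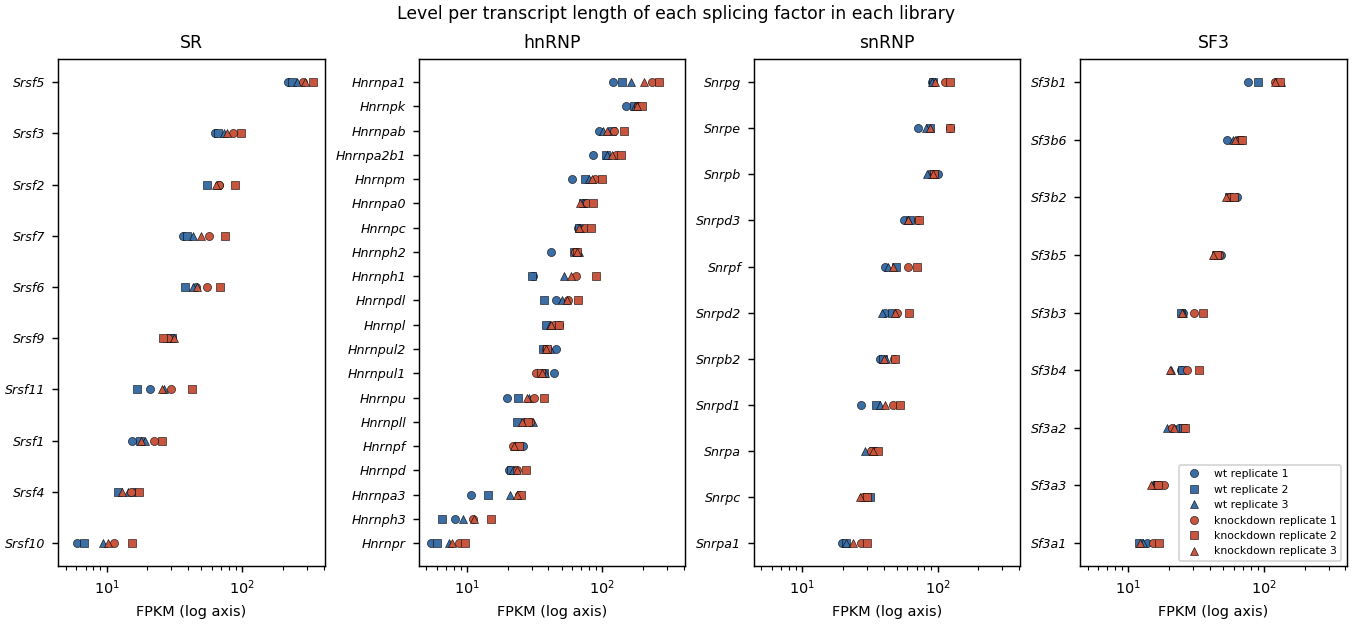
Deposited FPKM (horizontal log axis) of the 50 tested splicing factors in each of the 6 libraries, with 1 panel for each family and genes ordered by mean level. Srsf5 is highest at a mean of 268 FPKM and Hnrnpr lowest at 7.49 FPKM, a 35.8-fold range.

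The annotation gives many of these genes noncoding isoforms, which gene counts do not resolve. In GENCODE M21, 24 of the 51 members have an annotated NMD transcript, 47.1%, against 28.8% of 12255 protein-coding genes tested. A retained-intron transcript is annotated for 38 members, 74.5%, against 59.4%. These shares are not particular to the members. Among 111 other genes of the splicing pathway, described below, they were 47.7% for NMD and 81.1% for retained introns. The median number of annotated transcripts was 6 for members and 5 for all protein-coding genes tested. NMD transcripts are annotated for 9 of 11 SR genes, 10 of 20 hnRNP genes, 4 of 11 snRNP genes and 1 of 9 SF3 genes. Hnrnpk has 34 transcripts, 13 of them with a retained intron, and Srsf11 has 19, of which 11 retain an intron and 3 are NMD transcripts. For Srsf7 the annotation lists 8 transcripts, 1 NMD and 3 with a retained intron, and for Hnrnpa1 it lists 5, of which 2 are NMD transcripts. Hnrnph1 has 18 transcripts, 3 of them protein-coding, and Srsf10 has 10, 4 of them protein-coding. Neither gene has an annotated NMD or retained-intron transcript. A gene count cannot tell a change in the coding transcript from a change in these isoforms.

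Overlap with neighbours also limits some counts, because the use of strand in counting is not given in the sources used here. Hnrnph3 overlaps Rufy2, Hnrnpk overlaps Rmi1, Hnrnpu overlaps Cox20, Sf3b3 overlaps Cog4, and Srsf2 overlaps Mettl23 and Mfsd11, all on the opposite strand. So do Hnrnpab with Phykpl, Sf3a2 with Plekhj1, Snrpa with BC024978, Snrpd3 with Gucd1 and Snrpf with Ccdc38. Noncoding genes and pseudogenes on the opposite strand are left out here. On their own strand, Srsf11 overlaps Gm43362, Snrpa1 overlaps Gm45213, Hnrnpul2 overlaps AC129217.1 and Hnrnpm overlaps March2. Hnrnpa3 overlaps Gm24574, Hnrnpk overlaps Mir7-1 and Srsf4 overlaps A930004J17Rik, also on the same strand. The same holds for Sf3b3 with Snord111 and Gm22193, Sf3b4 with Gm22027, and Sf3a3 with Gm12917 and Mir697. No annotated gene overlaps Hnrnpa1, Hnrnph1, Srsf7, Srsf10 or Hnrnpul1 in GENCODE M21. Members with processed pseudogenes or close paralogues, such as Hnrnpa1 and the pair Hnrnph1 and Hnrnph2, can share reads with these copies, and how such reads were counted is not given in the sources used here.

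Other genes of the splicing pathway were described from a list of 112 genes, of which 111 were in the table and tested. None passed an adjusted p of 0.05 in edgeR. At an unadjusted p under 0.05, 17 were higher and 3 lower, beside 6.9% and 8.31% of all genes. The labels did not overlap in 21 on the higher and 7 on the lower side, beside 13.3% and 12.6% of all genes. Estimates were above 0 in 71 and below 0 in 40, beside 52.1% of all genes above 0. On FPKM without TMM scaling, 94 of the 111 were above 0. The median was 0.08, close to the 0.09 of the members. On the higher side, the smallest p-values were those of Ptbp2, Mbnl3 and Tra2a. Ptbp2, the neuronal polypyrimidine tract binding protein, had 22.8, 19.5 and 33.2 CPM in wt and 40.4, 48.4 and 41.7 CPM in knockdown. Mbnl3, a muscleblind regulator of alternative exons, had 5.20, 9.81 and 13.2 CPM in wt and 21.5, 19.6 and 16.5 CPM in knockdown. Tra2a, an SR-related exon activator, had 81.6, 99.0 and 133 CPM against 148, 160 and 157 CPM. The labels did not overlap in any of the 3, with log2 fold changes of 0.79, 1.03 and 0.57.

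On the lower side of this list, the smallest p-values were those of Dhx8, Xab2 and Prpf8. Prpf8, the scaffold at the active site of the spliceosome, had 347, 328 and 308 CPM in wt and 266, 278 and 277 CPM in knockdown. The groups did not overlap, with a log2 fold change of -0.26 ± 0.11 (SE). Dhx8, the helicase that releases the spliced mRNA, had 71.7, 49.5 and 56.2 CPM against 43.1, 43.1 and 45.6 CPM, a log2 fold change of -0.43. Xab2, a protein associated with the Prp19 complex, had 90.8, 61.9 and 63.1 CPM against 54.6, 53.3 and 56.3 CPM, a log2 fold change of -0.39. For both, wt replicate 1 was far above the other libraries, and without it the differences were -0.27 and -0.19. By sublist, medians were highest for SR-related proteins at 0.33 and for SR protein kinases and the importer at 0.32, and lowest for spliceosomal helicases at -0.11. The sublist of U4/U6.U5 and NTC proteins, which holds Prpf8 and Xab2, had a median of 0.06. In it, 15 estimates were above and 11 below 0, beside 52.1% of all genes above 0.

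Summed over all 51 members, the level was 7715, 8030 and 8572 CPM in wt and 8778, 9181 and 8907 CPM in knockdown. The labels did not overlap in this sum, to which the hnRNP genes contributed most. The summed SR level was 1473, 1414 and 1562 CPM against 1664, 1892 and 1663 CPM, without overlap. The snRNP sums, 557, 576 and 515 CPM against 582, 566 and 562 CPM, overlapped, as did those of SF3.

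Summed marker levels separated the labels for macrophage, cell cycle and neutrophil lists and overlapped for the other 5. The 11 macrophage markers all had estimates below 0, 7 of them without overlap, beside 12.6% of all genes. Their summed level was 15953 to 21298 CPM in wt and 9493 to 15834 CPM in knockdown, where the closest libraries were nearly equal. The 10 cell cycle genes all had estimates above 0, 5 without overlap, beside 13.3% of all genes. Their sums were 241 to 552 CPM in wt and 560 to 800 CPM in knockdown, and the closest libraries again differed by little. Fibroblast markers, 9 of 9 above 0, summed to 24.0 to 478 CPM and 346 to 689 CPM, with overlap, and wt replicate 1 held the lowest sum. T cell markers, 7 of 7 above 0 with Trac not listed, summed to 22.4 to 102 CPM and 79.3 to 220 CPM, with overlap. Neutrophil markers, 6 of 6 below 0 and 4 of them without overlap, summed to 1694 to 1894 CPM and 730 to 1478 CPM. The sums overlapped also for 6 epithelial or carcinoma markers in the table, at 35.2 to 137 CPM and 129 to 191 CPM, where Krt19 and Cldn4 had at most 3 counts in each library and Cldn3 and Cldn7 were not listed. They overlapped again for 6 dendritic cell markers, at 62.8 to 119 CPM and 45.1 to 89.0 CPM, and for 6 endothelial markers, at 32.9 to 41.1 CPM and 30.5 to 34.9 CPM. Malat1, a nuclear noncoding RNA, was at 465, 285 and 473 CPM in wt and 510, 740 and 595 CPM in knockdown. The part of these differences in the splicing factor values was not tested, and in bulk RNA fewer cells of a type and less RNA per cell cannot be told apart.

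**Figure D5:**
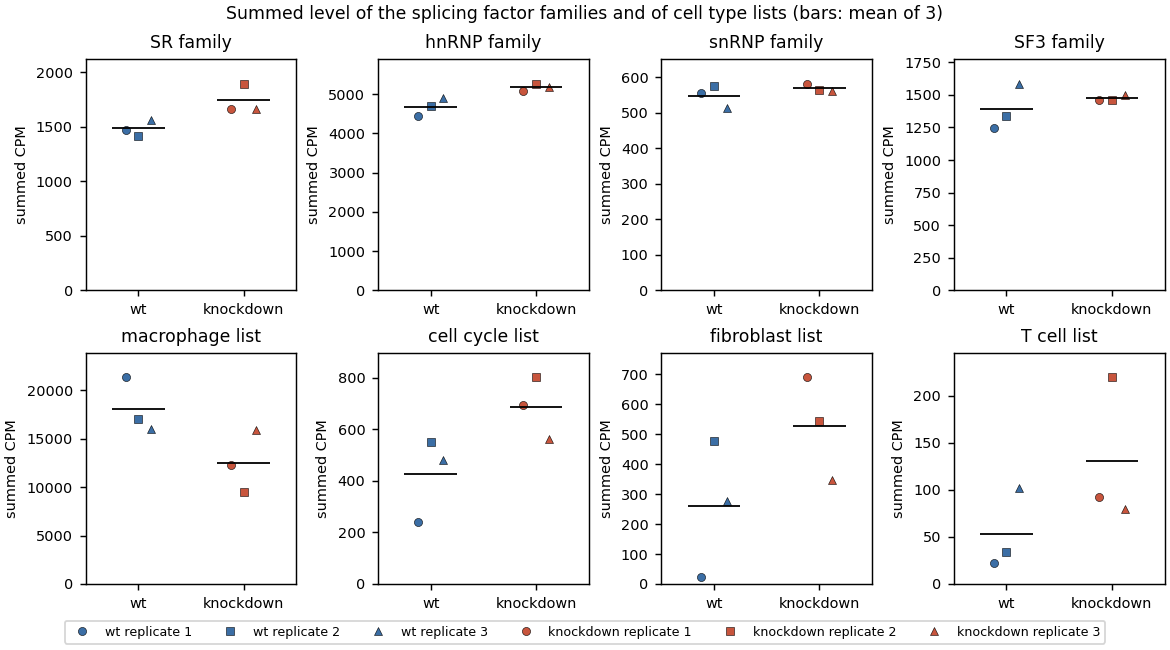
Summed CPM of the 4 splicing factor families (upper row) and of 4 marker lists (lower row) in each library, with wt at the left, knockdown at the right and horizontal lines for the means of 3 libraries. The SR and hnRNP sums of the knockdown libraries lie above those of wt, the macrophage sums lie below and the cell cycle sums above.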

How the data were processed

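The authors deposited raw counts for each gene. They also deposited FPKM values, in which each count is scaled by a fixed gene length and by the library total with no TMM step. Aligner, counting tool and annotation are not given in the sources used here, and the submitters' processing notes list the genome build mm10 without a role. According to the methods of the study, libraries were prepared with a SMARTer low-input kit and read from both ends.

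Counts were fitted over all genes with edgeR 4.0.16 in R 4.3.3 (filterByExpr, TMM factors, glmQLFit and glmQLFTest, Benjamini-Hochberg adjustment over 13884 genes). Standard errors were derived from each log2 fold change and its F statistic, and mean ± SD values are of TMM-scaled CPM or of deposited FPKM. Depth of 36550775 to 38147320 counts puts 3 counts at 0.0716 to 0.0846 CPM, and this covers counting error only. Alternatives were RLE factors, DESeq2 1.42.0, other filters, a replicate block, each library left out, and limma 3.58.1 on log2 of FPKM plus 1 or 0.1. The fits were tested on simulated data. Coordinates and overlaps are those of GENCODE M21 on GRCm38, matched by symbol for 51 of 51 members, and promoter sequences are from RefSeq, matched for 45.

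Named genes were those under an adjusted p of 0.05, the 3 smallest p-values and 2 highest mean FPKM in each family, members that failed the filter, and the 3 smallest p-values in each direction among other splicing genes. The other members with values in the text were chosen after their values were seen. The members, lists and tests were chosen with earlier results of these data known.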

Additional observations from a re-analysis of the deposited data

How the results depend on the processing

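The number of members and of other splicing genes at an adjusted p under 0.05 was 0 under all 15 alternatives. Of the named-gene values recomputed, 509 kept their direction and 16 changed it. Counts at an unadjusted p moved more, also over all genes. In edgeR, 2112 of 13884 genes were under 0.05 in either direction, and 669 to 2689 genes with 1 library left out. In DESeq2 without wt replicate 1 these were 1944 of 22141 genes. In limma they were 2774 of 13884 with 1 added, 2596 with 0.1 added and 2746 of 22377 without a filter. On the higher side, 8 members became 5 in DESeq2 without wt replicate 1, 21 in limma on log2 FPKM plus 1 or plus 0.1, 19 in limma without a filter, and 3 to 10 with 1 library left out, with 3 without knockdown replicate 2, 5 without wt replicate 1, wt replicate 2 or knockdown replicate 1. On the lower side, 1 member became 0 in DESeq2 without wt replicate 1 and in all 3 limma fits, and 0 to 2 with 1 library left out, with 2 without wt replicate 3 and 0 without wt replicate 1 and without either of knockdown replicates 1 and 2. Members lower without overlap numbered 5, 1 on FPKM, and 5 to 10 with 1 library left out, with 10 without wt replicate 3. Groups of 2 and 3 libraries separate more easily than groups of 3 and 3, so counts with 1 library left out run higher by construction. The share of all genes without overlap is not given for these alternatives.

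FPKM without TMM scaling shifted the medians upward, since the fit then leaves the scaling factors out. In limma with 1 added, with 0.1 added, and with 1 added and no filter, the median was 0.24, 0.24 and 0.23 over members, 0.23, 0.24 and 0.23 over hnRNP genes, 0.27, 0.27 and 0.27 over snRNP genes, 0.13, 0.13 and 0.13 over SF3 genes, and 0.21, 0.23 and 0.21 over other splicing genes. The SR median was 0.36 with 1 added and 0.36 with 0.1 added. The SF3 median was -0.11 in DESeq2 without wt replicate 1 and lay between -0.0905 and 0.00301 with 1 library left out. Sign changes among named genes touched estimates near 0. Sf3b6 was 0.00645 with at least 10 counts in every library, between -0.0860 and 0.0786 with 1 library left out (above 0 without wt replicate 2) and 0.13 in each limma fit. Hnrnpk was between -0.0162 and 0.0787 with 1 library left out (below 0 without wt replicate 1 or knockdown replicate 3) and -0.0397 in DESeq2 without wt replicate 1. Srsf4 was between -0.158 and 0.0480 with 1 library left out (above 0 without wt replicate 1), 0.0246 in DESeq2 without that library, and 0.0903, 0.0959 and 0.0903 in the limma fits, where Hnrnpa0 was 0.0845, 0.0854 and 0.0845. Where no construction of the alternative shows it, the cause was not tested.

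The labels do not state whether libraries with the same replicate number were paired. Their deviations from the group means correlated at -0.24, 0.06 and -0.34. With 3 libraries per group, these values cannot decide on a pairing. With a replicate block in edgeR, 5 members were under an unadjusted p of 0.05 on the higher side and 0 on the lower. In either direction, 1606 of 13884 genes were under it. Hnrnpul1 was no longer under it, and the median over members was 0.09. After adjustment over all genes, no member's difference was separable from the spread between libraries.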
